A study of Ovis aries with 16 samples.

Results

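By name, the miR-29 family in the sheep testis was represented by 2 of the 271 miRNAs in the deposited values, oar-miR-29a and oar-miR-29b. Members were chosen by name, as all listed miRNAs whose name begins with oar-miR-29 and a letter, so that oar-miR-299 was left out. No measured value entered this rule, but the family was selected on a diet difference of oar-miR-29a that was already known, so that difference is a description and its FDR is not independent evidence. Testis tissue came from 16 Merino rams, 24 months old on entry, with 1 library per male made from total RNA of testis tissue that was not sorted into cell types. The 8 well-fed males were fed for a change in body mass of 10% over 65 days, and the 8 underfed males for a change of -10% over the same time. Both diets consisted of oaten chaff and lupin grain and differed in the amounts offered.

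MicroRNAs are short RNAs that guide Argonaute proteins to partly complementary sites in mRNAs, where pairing is set mainly by the seed at the 5′ end of the miRNA. Members of the miR-29 family share this seed and differ in the rest of the sequence. The family is best known for repressing mRNAs of collagens, elastin and other extracellular matrix proteins, and also targets the DNA methyltransferases DNMT3A and DNMT3B and the anti-apoptotic protein MCL1. In mammals miR-29a is usually encoded beside a copy of miR-29b, and a further copy of miR-29b is encoded beside miR-29c. The study placed oar-miR-29a and oar-miR-29b in the same cluster on OAR3.1. The RefSeq gene table of a later assembly, ARS-UI_Ramb_v3.0, lists MIR29A and 2 genes for miR-29b, MIR29B-1 and MIR29B-2. Neither of these 2 lies on the chromosome of MIR29A in that table, and CD46 lies between them. From which copy the oar-miR-29b reads came cannot be told from the deposited values, and no miRNA named miR-29c was listed.

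Expression is given as CPM, the reads of a miRNA per 1000000 miRNA reads of its own library. The CPM worth a single read could be read from the low values, which gave 17163 to 503916 miRNA reads in well-fed libraries (median 294248) and 27797 to 1058985 in underfed libraries (median 532447). Fewer than 100000 miRNA reads were found in 3 libraries, which were well-fed replicate 5 and underfed replicates 6 and 8. A miRNA with 3 reads, taken as the floor, makes up 0.000283% of miRNA reads in the deepest library and 0.0175% in the shallowest. Intervals and floors cover counting error only, since PCR reads are not independent molecules. Males were taken as the replicates.

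Of the reads of these 2 members, oar-miR-29a supplied nearly all. Over the 16 libraries, 22447 reads belonged to oar-miR-29a and 472 to oar-miR-29b. A predicted miRNA that the study pairs with a miR-29a of another species, candidate-miR-107, had 1906 reads. It lies outside the rule and is left out of the family values here. Mean expression of oar-miR-29a was 3404 CPM, which ranked 38 among the 271 miRNAs, between candidate-miR-45 (3452 CPM), a predicted miRNA, and oar-miR-30c (2859 CPM). The SDs over the 16 libraries were 1076 CPM for oar-miR-29a, 1323 CPM for candidate-miR-45 and 716 CPM for oar-miR-30c, so the means of these neighbours lay closer together than the spread of any of them. Mean expression of oar-miR-29b was 63.7 CPM, which ranked 140. Its neighbours candidate-miR-74 and candidate-miR-69 had 64.8 and 62.6 CPM, also far closer than the SD of 42.1 CPM for oar-miR-29b. The share of miRNA reads taken by oar-miR-29a and oar-miR-29b together was 0.292% ± 0.048 (SD, n = 8) in the well-fed group. It was 0.402% ± 0.126 (SD, n = 8) in the underfed group.

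Expression of oar-miR-29a was between 1893 and 3635 CPM in well-fed males, with a median of 2888 CPM. In underfed males it was between 2217 and 5661 CPM, with a median of 4023 CPM. The diets overlapped on this scale, although 5 of the 8 underfed males lay above the highest well-fed male. The lowest well-fed value was that of replicate 8, and the highest of all was that of underfed replicate 1, where 844 reads gave a 95% interval from 5291 to 6053 CPM (Wilson). Even in the shallowest library, well-fed replicate 5, oar-miR-29a had 50.0 reads and an interval from 2211 to 3838 CPM, while underfed replicate 3 held the most, 5873 reads. The counting intervals of the deeper libraries were narrower than the spread between males. Ranked by CPM within each library, it stood at 35 to 48 with the high diet and at 26 to 37 with the low diet.

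**Figure D1:**
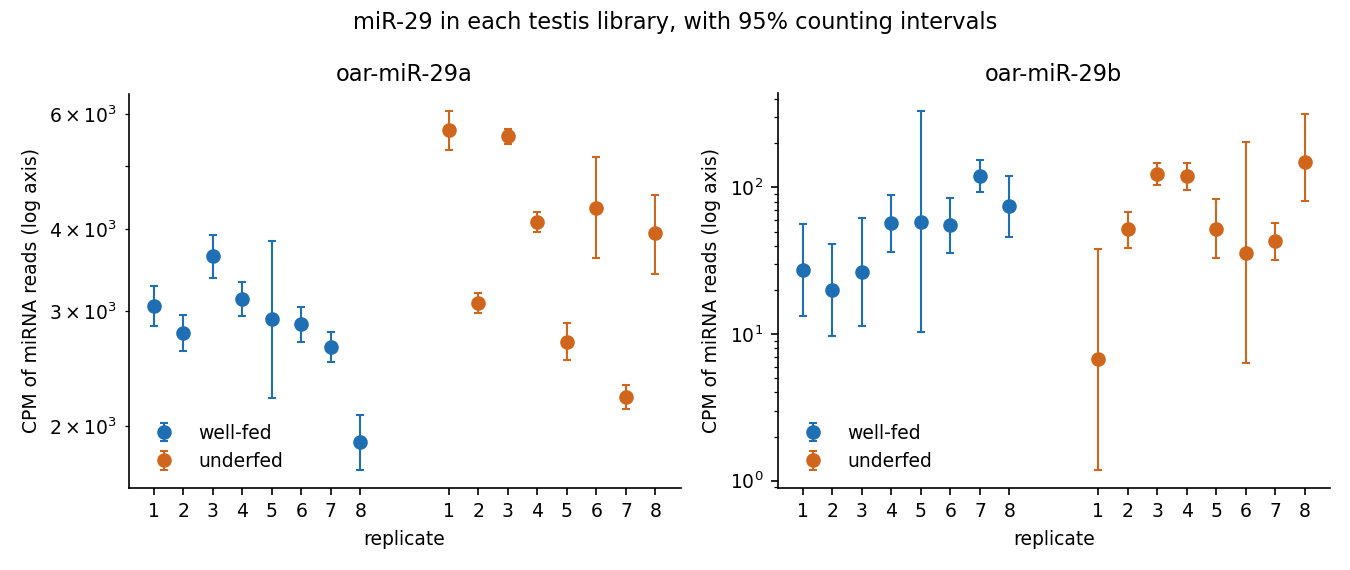
CPM of oar-miR-29a and oar-miR-29b (log axes) in each of the 16 libraries, by replicate number, blue for well-fed and orange for underfed males, with 95% Wilson intervals for counting error. The intervals of oar-miR-29a are narrow except in libraries with few reads, while oar-miR-29b rests on 1 read in well-fed replicate 5 and in underfed replicates 1 and 6.

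The mean for oar-miR-29a was 2863 ± 493 CPM (SD, n = 8) with the high diet and 3946 ± 1252 CPM (SD, n = 8) with the low diet. FC, the ratio of these means, was 1.38, and 6.97% of the 244 tested miRNAs had a larger FC. The CPM of every miRNA depends on what the other miRNAs take from the total, so TMM factors were used to scale the libraries to each other. TMM (trimmed mean of M values) assumes that most miRNAs do not differ. Its factors were 1.08 to 1.39 for well-fed males, against 0.698 to 1.26 for underfed males. After TMM scaling, oar-miR-29a was between 1506 and 2904 CPM in well-fed males, with a median of 2496 CPM. In underfed males it was between 3136 and 7024 CPM, with a median of 4457 CPM. All 8 underfed males now lay above all 8 well-fed males. Such a lack of overlap with higher values in underfed males was found for 1.23% of the miRNAs tested, the other two being oar-miR-26a and oar-miR-23b. With lower values in underfed males it was found for 0.0% on this scale. On unscaled CPM the shares were 0.0% with higher and 2.05% with lower values, and oar-miR-29a was not among them. Among the 13 libraries with at least 100000 miRNA reads, the highest of the 7 well-fed values was the same 2904 and the lowest of the 6 underfed values the same 3136 TMM-scaled CPM.

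On the log2(CPM + 1) scale with TMM factors, oar-miR-29a rose by 0.89 in underfed males (standard error 0.18, 95% interval 0.52 to 1.26, FDR 0.00546, limma with Benjamini-Hochberg adjustment over 244 miRNAs). FDR was under 0.05 with higher expression in underfed males for 3.69% of the miRNAs tested, and under 0.05 in either direction for 6.15%. To be called differentially expressed (DE) a miRNA also needed an FC above 1.5 or below 0.67. With FDR from the TMM-scaled fit and FC from unscaled CPM, 3.28% of the miRNAs tested met both criteria. For oar-miR-29a the FC criterion depended on the scale of the means. The ratio was 1.38 on unscaled CPM, below 1.5, and 1.89 on TMM-scaled CPM, above it. On TMM-scaled CPM the ratio was at least 1.64 for all 9 miRNAs with FDR under 0.05 and higher expression in underfed males. Passing 1.5 on that scale was therefore not particular to oar-miR-29a. By unadjusted p, oar-miR-29a ranked 2 among the 244 miRNAs, after oar-miR-26a. Its log2 fold change exceeded that of 229 of the other 243 miRNAs, and that of 53 of the other 57 miRNAs with a mean of at least 1000 CPM. Over all tested miRNAs the median was -0.08.

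The difference of oar-miR-29a was in the same direction under each scaling, but its size was not. Without TMM the log2 fold change was 0.42 with FDR 0.152 (limma), which did not pass the threshold, and the median of all tested miRNAs was -0.51. When miRNAs and piRNAs were scaled jointly, it was 1.84 with FDR 0.000592 (limma), and the median was 0.81. On the joint scale the diets again did not overlap for oar-miR-29a, as for 4.1% of the miRNAs tested. Relative to the median of all tested miRNAs, oar-miR-29a was higher by 0.97 with TMM, by 0.92 without TMM and by 1.03 with joint scaling. Each scaling multiplies a library by a single factor, which shifts all log2 fold changes by nearly the same amount. These values were therefore close by construction and are not separate evidence. The calls among all miRNAs split into 9 higher and 6 lower with TMM, 1 higher and 38 lower without TMM, and 85 higher and 0 lower with joint scaling. When single males were left out, oar-miR-29a stayed between 0.80 and 0.96 on the log2 scale, and FDR was under 0.05 in all 16 fits (limma, 0.00275 to 0.0168).

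**Figure D2:**
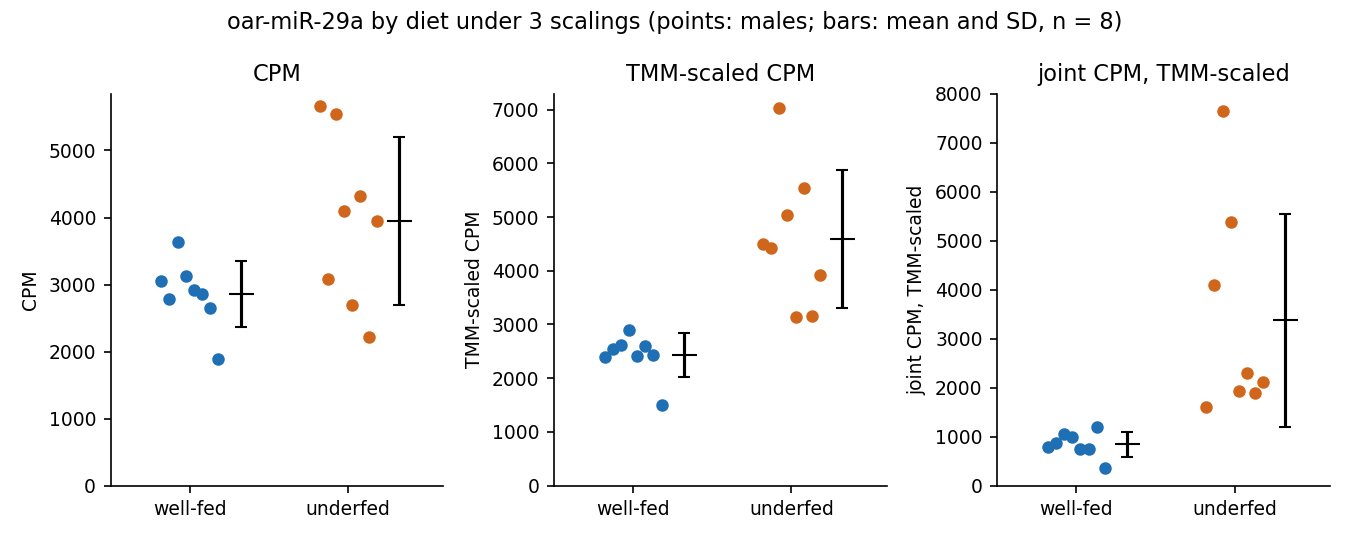
Expression of oar-miR-29a in each male (points) with the mean and SD of each diet (bars, n = 8), as CPM, as TMM-scaled CPM and as TMM-scaled CPM of miRNA and piRNA reads together; each axis starts at 0. The diets overlap on CPM and do not overlap on the other two scales.

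Other small RNAs moved with the diets as well. The ratio of miRNA to piRNA reads was 0.355 to 0.908 in well-fed and 0.517 to 3.13 in underfed males. Among miRNAs known from meiotic and later germ cells, the relatives of miR-34 and miR-449a, candidate-miR-31 and candidate-miR-161 fell by 0.90 and 0.78 on the log2 scale with TMM (both FDR 0.0256, limma), and the other two did not pass the threshold. The median of these 4 miRNAs was -0.79 with TMM and -1.26 without TMM, but 0.16 with joint scaling. Without TMM, 3 of the 4 passed the threshold with lower expression in underfed males, as did 38 of the 244 miRNAs tested. With joint scaling none of the 4 passed. Their summed CPM was between 47551 and 71118 CPM in well-fed and between 10999 and 58195 CPM in underfed males, and 44649 CPM in underfed replicate 1. Among them candidate-miR-162 was at 0 in 2 libraries. The mesenchymal miRNAs oar-miR-199a-3p and candidate-miR-16 had log2 fold changes of 0.61 and 0.56 with TMM. Of the smooth muscle and peritubular miRNAs, oar-miR-143 and candidate-miR-90, the homologue of miR-145, had log2 fold changes of 0.52 and 0.62 with TMM. Without TMM the medians were 0.11 for the mesenchymal and 0.10 for the smooth muscle miRNAs. With TMM these 4 miRNAs did not pass the FDR threshold (oar-miR-199a-3p, FDR 0.0526, limma), whereas with joint scaling all 4 did. None of the 4 blood cell miRNAs, of the 4 listed epithelial miRNAs or of the 2 skeletal muscle miRNAs passed it with TMM, where the median log2 fold changes were 0.21, 0.85 and 0.83. Without TMM these medians were -0.27, 0.42 and 0.47. With joint scaling they were 1.15, 1.5 and 1.51, and 2 of the 4 blood cell miRNAs, 1 of the 4 epithelial miRNAs and 0 of the 2 skeletal muscle miRNAs passed. Summed expression in well-fed and underfed males was 3514 to 9386 and 2854 to 9375 CPM for blood cells, 25.8 to 174.8 and 23.3 to 179.9 CPM for epithelium, and 0 to 51.6 and 0 to 58.2 CPM for the 2 predicted skeletal muscle miRNAs. It was 2702 to 4217 and 2969 to 5936 CPM for mesenchyme, and 153985 to 210989 and 138660 to 215633 CPM for smooth muscle. A further muscle miRNA that was not in the list and was added after its values were seen, oar-miR-133, had a mean of 534 CPM with the high diet and 501 CPM with the low diet. Its log2 fold change with TMM was 0.51 (FDR 0.302, limma). The part of these shifts in the difference of oar-miR-29a was not tested, and in whole tissue fewer cells of a type and less RNA per cell cannot be told apart.

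Expression of oar-miR-29b was between 19.9 and 119.1 CPM in well-fed males, with a median of 56.1 CPM. In underfed males it was between 6.71 and 149.7 CPM, with a median of 52.1 CPM. The diets overlapped widely, and the lowest and the highest values were both from underfed males. Reads were few, and 7 of the 16 libraries held fewer than 10 reads of oar-miR-29b. A single read stood behind the value in well-fed replicate 5 (58.3 CPM, 95% interval 10.3 to 330.0), in underfed replicate 1 (6.71 CPM, 1.18 to 38.0) and in underfed replicate 6 (36.0 CPM, 6.35 to 203.8). The highest value, in underfed replicate 8, rested on 7.50 reads. The better covered underfed replicates 3 and 4 had 130 and 86.0 reads and 122.8 and 119.1 CPM, above the 43.1 CPM from 44.3 reads in underfed replicate 7. The 95% intervals of replicates 3 and 4 began at 103.4 and 96.5 CPM, while that of replicate 7 ended at 57.4 CPM, so oar-miR-29b differed between males of the same diet by more than counting error.

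The mean for oar-miR-29b was 54.7 ± 32.3 CPM (SD, n = 8) with the high diet and 72.7 ± 50.7 CPM (SD, n = 8) with the low diet. The ratio of means was 1.33, while the ratio of medians was 0.929. On the log2 scale with TMM, the fold change was 0.65 (standard error 0.59, 95% interval -0.57 to 1.88, FDR 0.497, limma), which did not pass the threshold and whose interval includes the value of oar-miR-29a. Without TMM it was 0.18 and with joint scaling 1.58 (FDR 0.850 and 0.0648, limma). Of the single males left out, underfed replicate 1 moved the TMM value most. Without that male the log2 fold change was 1.13 with FDR 0.0883 (limma). A limma fit with sample weights gave 1.27 with FDR 0.00880, but in that fit 98 of the 244 miRNAs passed, against 15 in the main fit. Relative to the median of all tested miRNAs, oar-miR-29b was higher by 0.73 with TMM, by 0.69 without TMM and by 0.77 with joint scaling. As for oar-miR-29a, these values were close by construction.

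**Figure D3:**
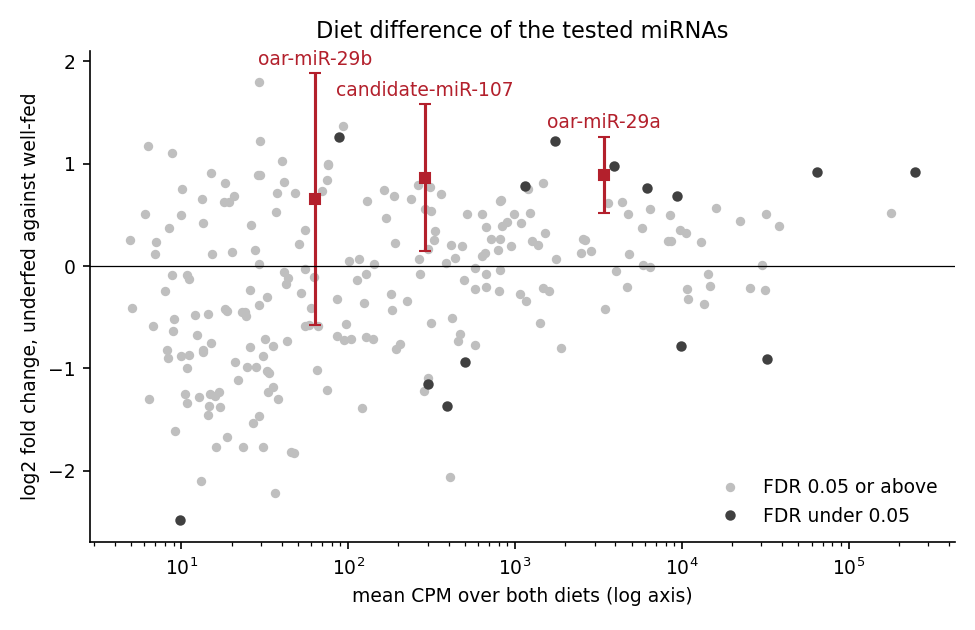
Log2 fold change (underfed against well-fed, TMM-scaled) against mean CPM (log axis) for the 244 tested miRNAs, with dark points for FDR under 0.05. The red squares with 95% intervals mark oar-miR-29a at 0.89, clear of 0, and oar-miR-29b at 0.65 and candidate-miR-107 at 0.86 with wider intervals.

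A ratio of both members within a library does not depend on the scaling between libraries. In well-fed males, oar-miR-29a exceeded oar-miR-29b by between 22.2-fold and 139.7-fold, with a median of 53.4-fold. In underfed males the ratio was between 26.3-fold and 844.3-fold, with a median of 51.4-fold. The medians were near each other, and the 844.3-fold of underfed replicate 1 stood apart from the rest. As a share of the reads of both members, oar-miR-29b made up 0.118% there (exact 95% interval 0.00300% to 0.658%). The intervals of 10 of the other 15 libraries lay wholly above this one. The share was highest in well-fed replicate 7, at 4.31% (3.31% to 5.51%), and its interval lay above those of well-fed replicates 1, 2, 3, 4 and 6.

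For log2 ratios, 1 CPM was added to each miRNA, which lowers the ratio where oar-miR-29b is low. The mean log2 ratio of oar-miR-29a to oar-miR-29b was 5.88 ± 1.01 (SD, n = 8) with the high diet. It was 6.11 ± 1.52 (SD, n = 8) with the low diet. The difference was 0.23, with an interval from -1.06 to 1.63 and p = 0.757 (exact permutation test over 12870 arrangements, two-sided). A difference in the ratio between diets was therefore not detectable, and the interval spans both directions. Without the added 1 CPM the difference was 0.24 (p = 0.758, exact permutation test). Without underfed replicate 1 the difference was -0.26 (p = 0.573, exact permutation test). Restricted to the libraries with more than 1 read of oar-miR-29b, a set chosen after seeing the data, it was -0.50 (p = 0.302, exact permutation test).

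**Figure D4:**
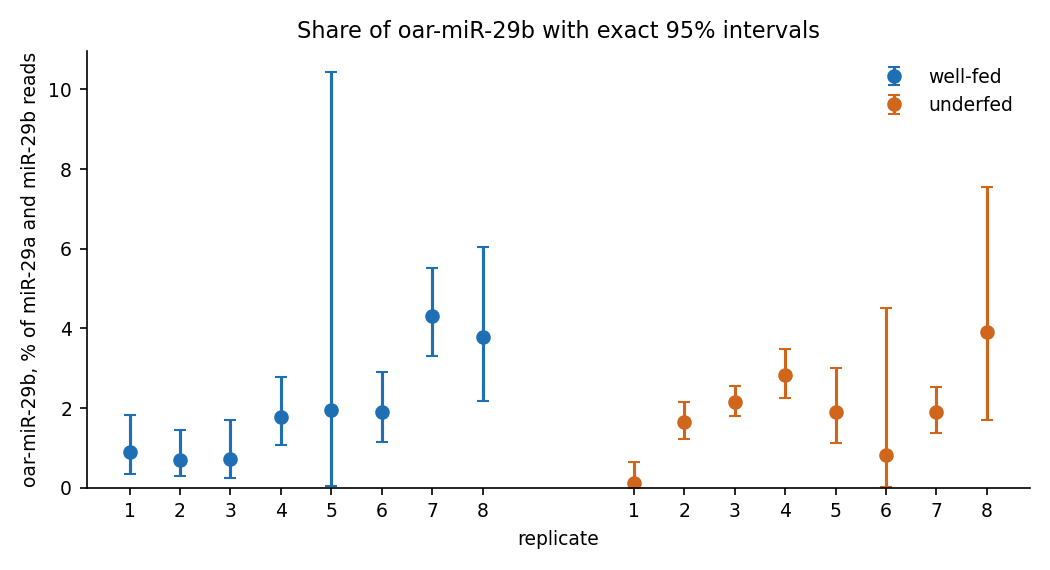
Share of oar-miR-29b among all reads of both members, in percent, with exact 95% intervals, for each library by replicate number (blue for well-fed, orange for underfed males). The share is lowest in underfed replicate 1 (0.118%) and highest in well-fed replicate 7 (4.31%), and the wide intervals belong to libraries with few reads.

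The spread of this ratio was set beside that of the other 4 pairs of known miRNAs that the study placed in clusters of 2 outside chromosome 18. The SD of the log2 ratio of oar-miR-23a to oar-miR-23b was 0.21 for the high diet and 0.36 for the low diet. For oar-let-7d with oar-let-7f it was 0.34 and 1.14, and for oar-let-7c with oar-miR-99a it was 0.46 and 1.23. In the libraries with at least 100000 miRNA reads these last 2 pairs had SDs of 0.32 and 0.71, and of 0.47 and 0.48, while oar-miR-29a with oar-miR-29b had 1.08 and 1.64. The ratio within the miR-29 pair was thus more variable than that of the 3 abundant pairs in both diets, a comparison made without a test. Abundance was not matched, since oar-miR-29b had a mean of 63.7 CPM and as few as 1 read. Each member of those 3 pairs had a mean of at least 577 CPM. The part of counting error in the spread was not tested. The rare pair oar-miR-200a with oar-miR-200b, with mean expression of 29.7 and 6.31 CPM, had SDs of 2.0 and 2.28. In the libraries with at least 100000 miRNA reads these were 1.64 and 0.74.

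Deviations from the diet means followed different miRNAs for the members of the family. Over the 16 libraries, Spearman's rho between the deviations of oar-miR-29a and oar-miR-29b on the TMM-scaled log2 scale was 0.082. This placed oar-miR-29b 86 among the 243 other tested miRNAs in its likeness to oar-miR-29a. Between the same 2 members, rho was 0.220 (ranking 62) in the 13 deeper libraries and -0.165 (ranking 196) on CPM without TMM. The sign thus depended on the scale, and oar-miR-29b had 1 read in 3 libraries. The miRNAs most like oar-miR-29a were oar-miR-99a (rho 0.565), oar-miR-23b (0.550) and oar-miR-376c-3p (0.506). These likenesses were weak, and in the 13 libraries with at least 100000 miRNA reads the 3 miRNAs ranked 18, 18 and 29.

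The miRNAs most like oar-miR-29b were oar-miR-19b (rho 0.865), candidate-miR-87 (0.844), the homologue of miR-101, and candidate-miR-93 (0.832), the homologue of miR-20a. In the 13 deeper libraries their rho values were 0.940, 0.879 and 0.791, ranking 2, 4 and 14. On CPM without TMM they were 0.812, 0.776 and 0.874. By limma, oar-miR-19b, candidate-miR-87 and candidate-miR-93 had log2 fold changes between diets of 0.38, 0.81 and -0.23 (FDR 0.570, 0.142 and 0.677), so none of them passed the threshold. The 16 values share the TMM factor of their library, and these correlations are descriptions.

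A predicted miRNA outside the rule, candidate-miR-107, is paired by the study with a miR-29a of another species. It was between 148.2 and 341.4 CPM in well-fed males, with a median of 213.8 CPM. In underfed males it was between 145.6 and 758.5 CPM, with a median of 264.5 CPM. The diets overlapped, and the highest values were those of underfed replicates 8, 4 and 3, the same 3 males that had the highest oar-miR-29b. On the log2 scale it differed by 0.86 between diets (95% interval 0.14 to 1.58, FDR 0.127, limma), which did not pass the threshold. Its deviations resembled those of oar-miR-29b (rho 0.809, ranking 7 of 243) more than those of oar-miR-29a (rho 0.274, ranking 36), a comparison made without a test.

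The recovered reads of these 3 miRNAs were not always whole. The value of oar-miR-29a ended in 0.33 of a read in 6 libraries, and in each of these candidate-miR-107 ended in 0.66. In underfed replicates 2 and 7, oar-miR-29b ended in 0.33 and candidate-miR-107 in 0.66. In underfed replicate 8, oar-miR-29a and oar-miR-29b each ended in 0.5. The other 7 libraries held whole numbers for all 3 miRNAs. Such a remainder is below 1 by definition and does not give the number of reads that were shared out. Nor does a whole number show that none were. In underfed replicate 8, oar-miR-29b had 7.50 reads in all. How reads that match more than 1 of these similar miRNAs were shared out is not given in the sources used here, and the division between them is uncertain to an extent not measured here.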

How the data were processed

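Small RNAs from testis of 8 well-fed and 8 underfed males were analysed, 1 library per male, grouped by the diet in the labels. The authors demultiplexed reads with CASAVA 1.8, trimmed adaptors, removed other non-coding RNAs, mapped reads of 18 to 25 nt to miRBase release 20 and to miRNAs predicted on OAR3.1, and compared diets with a negative binomial model. The deposited signal is the authors' CPM. Each class of small RNA, miRNA or piRNA, was scaled to its own total of 1000000 before both were listed together, and no factor between libraries was seen. Predicted miRNAs are named candidate-miR here, with the authors' numbers.

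The CPM of 1 read was taken from the step between low values, and 93.7% to 99.0% of the low miRNA values were whole reads and 100% were multiples of 0.5 reads (tolerance 0.02 reads). TMM was reimplemented on the recovered reads (30% of log ratios and 5% of abundances trimmed). MiRNAs with CPM above 5 in at least 8 libraries were tested with limma 3.58.1 in R 4.3.3 after log2 transformation of CPM + 1, with a trended empirical Bayes prior. Fold changes on this scale understate changes of low miRNAs. FDR under 0.05 was the threshold, and DE also needed FC under 0.67 or above 1.5. The log2 ratio of both members, on CPM + 1, was compared by exact permutation, with its interval from the same test at 95%. The fit was also run on simulated reads, but without TMM factors, so the TMM scaling was not tested there. Python 3.11.15, numpy 2.4.6, pandas 2.3.3, scipy 1.17.1 and matplotlib 3.10.9 were used.

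Named miRNAs are both members, candidate-miR-107, the 3 miRNAs most like each member, the neighbours in mean CPM, the clustered pairs and the marker lists. Of the lists, oar-miR-145 and oar-miR-200c were not among the 271 miRNAs in the deposited values. Members and lists were chosen with earlier results of these data known. Homologues, cluster membership, age and breed are from the study. No mature sequences were used here. Alternatives were no TMM, joint scaling, no filter, pseudocounts of 0.1 and 10, the replicate number as a block, only libraries with at least 100000 miRNA reads, voom on recovered reads, sample weights, and leaving out single males with the TMM factors kept. No 2 libraries had identical values.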

Additional observations from a re-analysis of the deposited data

Results flagged for a closer look

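Each diet group of 8 males was screened for a male far from the others in 14 sets of values, the CPM and TMM-scaled CPM of oar-miR-29a, oar-miR-29b and candidate-miR-107 and the log2 ratio of oar-miR-29a to oar-miR-29b. Chance flags about 1 in 20 such sets. The TMM-scaled expression of oar-miR-29a in well-fed replicate 8 (1506 CPM) was far below the other well-fed males. The TMM-scaled expression of oar-miR-29b in well-fed replicate 7 (109.9 CPM) was far above them. The log2 ratio of oar-miR-29a to oar-miR-29b in underfed replicate 1 (9.52) was far above the other underfed males, and rested on 1 read of oar-miR-29b.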

How the results depend on the processing

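For oar-miR-29a, 24 of the 25 alternatives kept the direction and an FDR under 0.05 (limma). All of these 24 used TMM factors, of miRNA reads alone or of miRNA and piRNA reads together. The exception was the only fit without such factors, where the log2 fold change was 0.42 and the threshold was not passed. With each male left out and the TMM factors kept, the value ranged from 0.80 to 0.96. For oar-miR-29b, 24 of 25 kept the direction and an FDR above 0.05, with 0.47 to 1.13 when each male was left out. Sample weights gave 1.27, past the threshold in a fit where 98 of the 244 miRNAs passed. The difference in their log2 ratio was between -0.26 and 0.43 with each male left out, negative only without underfed replicate 1, and -0.50 in the libraries with more than 1 read of oar-miR-29b, an alternative chosen after seeing the data. None of the 20 alternatives for the ratio gave p under 0.05 (exact permutation tests). The causes were not tested.

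The number of miRNAs with FDR under 0.05, 15 with TMM, was 39 without TMM, 85 with joint scaling, 28 with a pseudocount of 10, 43 in the libraries with at least 100000 miRNA reads, 47 by voom and 98 with sample weights. It ranged from 4 to 44 with each male left out, lowest without well-fed replicates 2 and 8 and underfed replicates 2 and 3, highest without underfed replicate 1, and over 1.5 times away from 15 also without well-fed replicates 1, 5 and 6 and underfed replicates 5, 7 and 8. The replicate numbers are not pairs by design. The mean correlation of deviations was 0.0472 for males with the same number, above 0.1 in 3 of 8 pairs, and 2 of 8 well-fed males correlated best with their own number. A fit with the number as a replicate block gave a count of 15, and the log2 fold changes of oar-miR-29a and oar-miR-29b were 0.89 (FDR 0.00372) and 0.65 (FDR 0.463, limma), and the log2 ratio differed by 0.23 (p = 0.633, exact sign-flip permutation test). In 3 libraries oar-miR-29b had 1 read, and 1 of these, underfed replicate 1, held 149142 miRNA reads. With at least 100000 miRNA reads, oar-miR-29b differed by 0.56 on the log2 scale.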
